A study of Mus musculus and Homo sapiens with 8 samples.

Results

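The 9 genes described here serve the uptake of dead cells by macrophages. They are Axl and Mertk, 2 of the TAM receptors, Gas6 and Pros1, the ligands of that receptor family, Mfge8, another bridging protein, Timd4 and Stab1, receptors that bind dying cells directly, and Elmo1 and Dock1, which act inside the eating cell. They were taken by gene symbol from a mouse table of 25668 symbols, in which all 9 are present, and 8 of them had enough counts to be tested among 13247 tested genes. The table holds RNA sequencing counts of 6 libraries, 3 from macrophages grown out of bone marrow and 3 from osteoclasts, which resorb bone and arise when such macrophages fuse. All cells came from marrow of wild-type C57BL/6 mice aged 6 weeks, labelled as untreated. M-CSF, on which macrophages depend for survival, was given to both cultures at 50 ng/ml, and RANKL, which turns macrophages into osteoclasts, was added at 100 ng/ml for the osteoclasts alone. Whether replicates came from separate animals or cultures is not stated, so the p-values rest on differences among these libraries that may be no more than technical. No step that separates fused from unfused cells is given in the sources used here, and time in culture and medium may have differed between the groups along with RANKL.

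Macrophages clear dying cells by a chain of steps called efferocytosis. A dying cell turns the lipid phosphatidylserine to its outer face. Receptors such as Tim-4, the product of Timd4, and stabilin-1, the product of Stab1, bind this lipid themselves. Axl, Mer and Tyro3 are receptor tyrosine kinases that bind it through Gas6 or protein S, the product of Pros1, whose vitamin K-dependent Gla domains hold the lipid. Mfge8 instead links the lipid to integrins. The receptors then act on the Rac GTPases, among others through ELMO proteins paired with DOCK exchange factors, and the actin skeleton closes around the corpse.

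Of the 8 tested genes, 7 were lower in osteoclasts and 1, Mfge8, was higher. Among all tested genes 63.7% passed the same test, 31.4% lower and 32.3% higher, so passing it is common in this comparison. Axl fell from 205.6 ± 10.1 to 4.28 ± 1.08 CPM (counts scaled to library size, TMM-scaled; mean ± SD, n = 3 per group), and Gas6 fell from 507.4 ± 21.3 to 102.4 ± 9.42 CPM. Pros1, Elmo1, Stab1, Dock1 and Mertk fell less. The median log2 fold change was -0.99 over the 8 genes and -0.0040 over all tested genes. The osteoclast and macrophage libraries did not overlap for any of the 8 genes, nor for 68.1% of all tested genes. These are whole cultures, in which fewer cells of a type and less RNA per cell cannot be told apart.

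**Figure D1:**
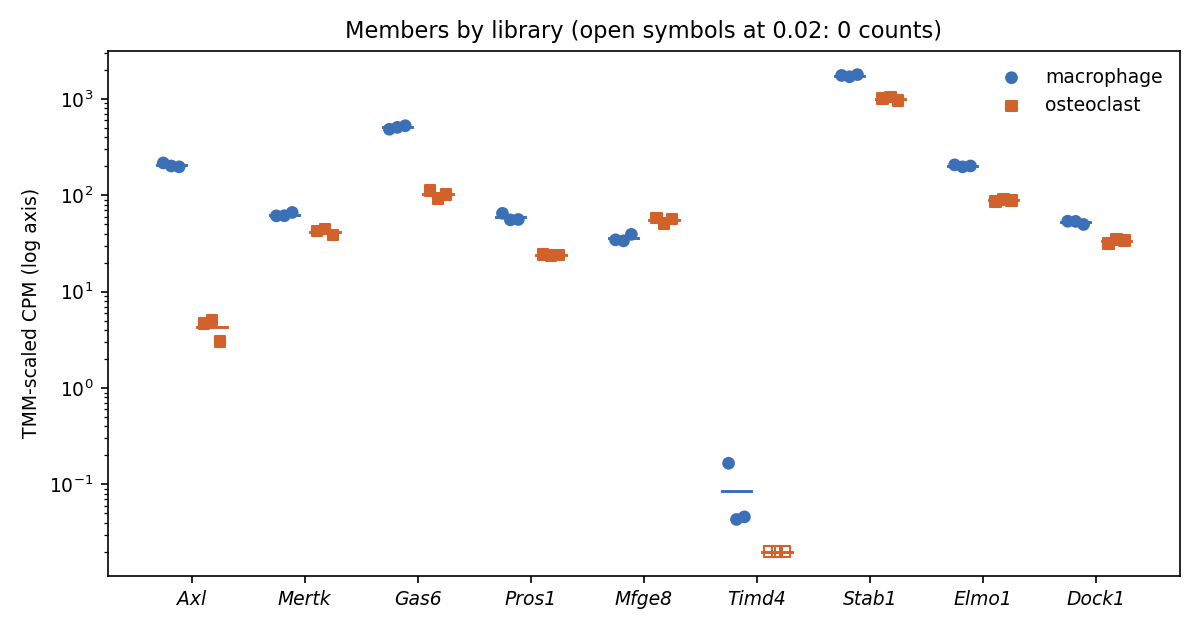
TMM-scaled CPM (log axis) of the 9 genes in each of the 3 macrophage (circles) and 3 osteoclast (squares) libraries, with a line at each group mean. Axl drops from about 206 to about 4 CPM, Mfge8 alone is higher in osteoclasts, and Timd4 lies near the detection floor in macrophages with 0 counts in osteoclasts (open symbols at the bottom).

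Library totals ran from 16743849 to 22587509 counts, which puts 3 counts at 0.130 to 0.178 CPM. The labels fit the markers: the summed level of 8 osteoclast markers, among them Acp5 and Ctsk, was 45.1 to 49.6 CPM in macrophages and 11566 to 12156 CPM in osteoclasts, and all 8 rose. Of 6 macrophage markers, 3 rose and 3 fell, and the lowest of them in osteoclasts, Mrc1, still read 167.9 CPM on average. Macrophage library 1 held 203.5 CPM of 9 stromal and fibroblast markers, against 5.98 and 2.49 CPM in the other macrophage libraries and 16.9 to 27.0 CPM in osteoclasts. Of the 4 stromal markers tested, 2 fell and 1 rose. The collagen genes Col1a1 and Col1a2 fell, with log2 fold changes of -2.95 and -2.96, but without macrophage library 1 both were called higher in osteoclasts, at 1.19 and 1.13. Dcn, the matrix protein decorin, had 12, 0 and 0 counts in macrophages and 162, 172 and 246 in osteoclasts, or 10.4 CPM on average. Pdgfra was at 0 in all osteoclast libraries, and Lum was at 0 in all macrophage libraries. Osteoclast library 2 differed from the other osteoclast libraries more than they differed from each other, with a chi-square per degree of freedom of 32.5 and 36.4 against 2.92. Of 7 neutrophil markers 5 were in the table, and they summed to 0.217 CPM at most in macrophages and 62.0 to 78.6 CPM in osteoclasts. Both that were tested rose, Lcn2 from 0.0338 to 52.2 CPM and S100a8 from 0.104 to 17.0 CPM, while Mpo, Elane and S100a9 had at most 1 count in any library. The 4 endothelial markers summed to 43.7 to 48.7 CPM in macrophages and 26.2 to 28.7 CPM in osteoclasts, where Kdr fell by 0.95 and Esam rose from 0, 0 and 2 counts to 72, 63 and 84. The 4 megakaryocyte markers summed to 44.7 to 46.0 and 130.8 to 144.8 CPM, where Pf4 rose by 1.57 and Ppbp by 2.77, and Itga2b (0.398 and 0.447 CPM) and Gp9 (at most 2 counts) were too low to test. Lymphoid, erythroid and dendritic markers summed to at most 1.31 CPM in any library. Stromal cells can also express Axl, Gas6, Pros1 and Mfge8, and the part of these or the other cell types in the results was not tested beyond the values without macrophage library 1. Those values leave in place the stromal marker signal of the osteoclast libraries, which was above that of macrophage libraries 2 and 3.

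Among the receptors, Axl showed the largest change of the 9 genes. Axl spans chromosome 7 from 25757273 to 25788705 on the minus strand of GRCm38 (mm10), overlaps no other annotated gene, and has 5033 exonic bases in 19 exon blocks. Axl read 217.0, 201.9 and 197.9 CPM in the macrophage libraries and 4.68, 5.11 and 3.07 CPM in the osteoclast libraries. Every macrophage library was thus far above every osteoclast library. The drop was 48.7-fold, a log2 fold change of -5.61 (SE 0.098, adjusted p = 3.44e-14), and only 21 of the 13247 tested genes, Axl among them, had a log2 fold change this low or lower. The 82, 86 and 64 osteoclast counts of Axl are still far above the floor of 3 counts, so the transcript was detected in every osteoclast library. Without macrophage library 1, which held the most stromal marker signal, the log2 fold change of Axl was -5.56.

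Mertk encodes Mer, the receptor on which resident macrophages rely most for eating dead cells. The gene spans chromosome 2 from 128698956 to 128802894 on the plus strand, with 4336 exonic bases. Mertk read 61.3, 61.5 and 66.5 CPM in macrophages and 42.9, 44.9 and 38.7 CPM in osteoclasts. The groups did not overlap, but the gap was small beside that of Axl, with a log2 fold change of -0.58 (SE 0.067, adjusted p = 5.29e-06), and -0.60 without macrophage library 1. Tyro3, the other TAM receptor, had 4, 0 and 2 counts in macrophages and 2 counts in each osteoclast library, so at 6 counts in each group it was not tested.

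The order of the receptors by level was reversed between the groups. Per kilobase of exons, which allows levels of different genes to be compared, Axl read 40.8 ± 2.00 in macrophages and 0.851 ± 0.214 in osteoclasts (CPM per kilobase, mean ± SD, n = 3). Mertk read 14.5 ± 0.681 and 9.73 ± 0.732 on the same scale. Mertk made up 24.7, 26.1 and 28.0% of the summed per-length signal of Axl, Mertk and Tyro3 in macrophages, and 91.3, 90.9 and 93.5% in osteoclasts. The log2 ratio of Mertk to Axl counts within a library does not depend on how libraries are scaled. It went from -1.70 ± 0.126 to 3.32 ± 0.284, a difference of 5.03 on the log2 scale, and every osteoclast library was above every macrophage library (exact permutation test, two-sided, p = 0.1, the smallest that 3 against 3 libraries allow; 0.1 adjusted over the 5 ratios tested). Mertk itself fell, and Axl fell further.

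**Figure D2:**
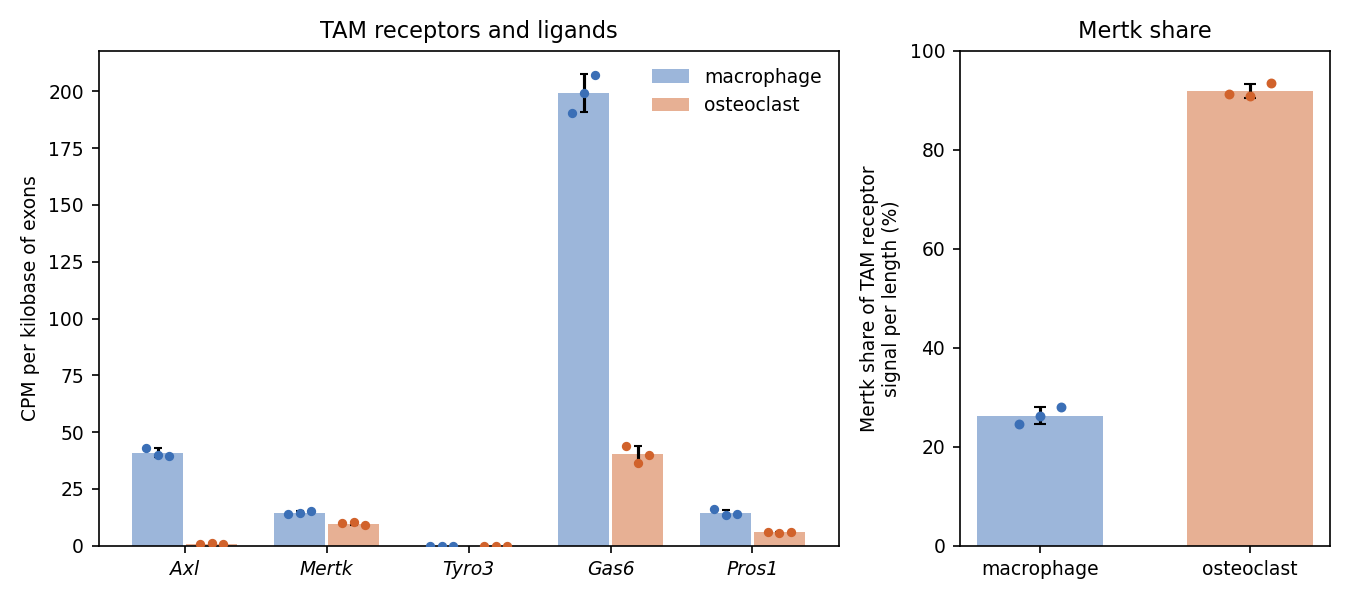
Left, CPM per kilobase of exons for the TAM receptors and their ligands (bars: mean; error bars: SD; points: libraries; n = 3 per group). Right, Mertk as a percentage of the summed per-length signal of Axl, Mertk and Tyro3, which goes from 26.3 to 91.9%.

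The promoters of Axl and Mertk, which fell by very different amounts, and of Mfge8, the gene that rose, are shown to set these sequences side by side. Each is the 250 bases before the start in RefSeq, on GRCm38.p6, 5′ to 3′ on the strand of the gene, with no annotated exon in the window. Capitals mark matches on either strand to any of 6 motifs: GGGCGG (bound by Sp1), TGANTCA (AP-1), GAGGAAG (PU.1), CACGTG (an E-box), TATAAA and AGGTCA (a motif of nuclear receptors such as LXR). The windows are chr7:25788734-25788983, minus strand, for Axl, chr2:128698665-128698914, plus strand, for Mertk, and chr7:79149061-79149310, minus strand, for Mfge8.
Axl: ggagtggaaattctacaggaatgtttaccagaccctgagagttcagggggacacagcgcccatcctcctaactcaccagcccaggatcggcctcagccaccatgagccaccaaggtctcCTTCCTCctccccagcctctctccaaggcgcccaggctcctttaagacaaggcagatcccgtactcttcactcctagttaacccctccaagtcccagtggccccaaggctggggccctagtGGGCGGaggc
Mertk: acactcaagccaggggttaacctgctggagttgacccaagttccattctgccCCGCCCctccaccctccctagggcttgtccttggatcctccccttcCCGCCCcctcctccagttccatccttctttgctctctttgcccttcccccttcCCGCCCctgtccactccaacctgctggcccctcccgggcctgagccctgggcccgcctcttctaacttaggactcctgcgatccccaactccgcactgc
Mfge8: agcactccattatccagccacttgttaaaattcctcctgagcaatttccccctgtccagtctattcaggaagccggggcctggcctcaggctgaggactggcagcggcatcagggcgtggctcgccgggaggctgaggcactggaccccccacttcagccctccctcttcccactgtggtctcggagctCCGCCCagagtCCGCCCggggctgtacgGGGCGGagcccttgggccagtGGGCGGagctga

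The Axl window held 1 match to GGGCGG and 1 to GAGGAAG, the Mertk window 3 matches to GGGCGG and the Mfge8 window 4. Among the tested members not shown, all of which fell, Gas6 had 4 matches to GGGCGG, Pros1 5, Dock1 3 and Stab1 0. Elmo1, with 2 windows, had 3 and 0. A link between matches and direction was not tested. At least 1 match to GGGCGG is found in 32.7% of the 32851 RefSeq promoter windows of this length, and to GAGGAAG in 10.6%. The AP-1 motif is found in 6.75% of windows, the E-box in 6.02%, the TATA motif in 12.4% and the nuclear receptor motif in 14%, and none of these had a match in the windows shown. GC content was 60% for Axl, 63.6% for Mertk and 65.2% for Mfge8, against a median of 52.4% over all windows. A match describes letters in this window only.

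Both TAM ligands fell with Axl. Gas6, the ligand that binds all of the TAM receptors, was among the most abundant of the 9 genes. It read 485.9, 508.1 and 528.4 CPM in macrophages and 111.9, 93.1 and 102.2 CPM in osteoclasts. The fall was 4.95-fold, a log2 fold change of -2.31 (SE 0.062, adjusted p = 1.81e-12), and 214 of 13247 tested genes were as low or lower. Without macrophage library 1 the value was -2.34. Gas6 spans chromosome 8 from 13465374 to 13494490 on the minus strand. It shares 34 exonic bases with Tmem255b on the other strand, which had at most 13 counts in any library.

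Pros1 encodes protein S, an anticoagulant of plasma that also serves Mertk and Tyro3 as a ligand. It read 65.1, 55.7 and 56.2 CPM in macrophages and 24.4, 23.6 and 24.1 CPM in osteoclasts. The fall was 2.45-fold, a log2 fold change of -1.29 (SE 0.071, adjusted p = 3.16e-09). Macrophage library 1, the one with the most stromal marker signal, held the most Pros1, and without it the log2 fold change was -1.22. The gene spans chromosome 16 from 62854307 to 62929346 on the plus strand and overlaps no other annotated gene. Gas6 remained the more abundant ligand per length in both groups, at 199.2 ± 8.34 against 14.4 ± 1.29 for Pros1 in macrophages and 40.2 ± 3.70 against 5.88 ± 0.0995 in osteoclasts. The log2 ratio of Pros1 to Gas6 counts rose by 1.02, from -3.11 ± 0.181 to -2.09 ± 0.109 (exact permutation test, two-sided, p = 0.1, the smallest possible; 0.1 adjusted over 5 ratios).

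The enzymes that prepare these ligands and the proteases that shed the receptors made a list of 6 genes, of which 2 rose and 2 fell (median -0.14). Counts in this and the later lists stand beside 32.3% of all tested genes that rose and 31.4% that fell. Adam10, a protease that can shed membrane receptors, fell by 0.39 on the log2 scale and Furin, which cleaves precursor proteins, by 0.29. With equal totals these values were -0.61 and -0.51. Adam17, the protease that sheds Mer, rose by 0.22, but the call was lost with equal totals (0.0040, adjusted p = 0.938) and on the deposited scale (0.03, adjusted p = 0.901). The carboxylase Ggcx did not pass (-0.21, adjusted p = 0.0877) but was called lower with equal totals (-0.43) and without osteoclast library 2 (-0.29), and Vkorc1, which recycles vitamin K, did not pass (-0.07, adjusted p = 0.772). Of 5 genes of the interferon receptor and SOCS feedback that TAM receptors engage, 3 rose, 1 fell and 1 did not pass. Socs3, which dampens signals from cytokine receptors, rose by 4.67, from 1.44 ± 0.178 to 36.5 ± 3.81 CPM, and Socs1 rose by 1.30.

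Mfge8, the bridging protein between phosphatidylserine and integrins, went the other way. It read 34.6, 33.7 and 39.4 CPM in macrophages and 58.4, 51.1 and 57.0 CPM in osteoclasts. Every osteoclast library was above every macrophage library. The rise was 1.55-fold, a log2 fold change of 0.63 (SE 0.074, adjusted p = 6.82e-06), and 0.41 with equal totals. The gene spans chromosome 7 from 79133768 to 79149060 on the minus strand and overlaps no other annotated gene. Without macrophage library 1 its log2 fold change was 0.61.

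The integrins that Mfge8 can bind moved in opposite directions. Itgb3, the integrin subunit typical of osteoclasts, rose from 11.7 ± 0.841 to 154.0 ± 18.2 CPM, by 3.73 on the log2 scale (SE 0.088, adjusted p = 5.72e-13). Itgb5, the subunit that also pairs with the alpha chain Itgav, fell from 507.8 ± 6.58 to 66.6 ± 1.74 CPM, by 2.93. Itgav, shared by both pairs, fell from 456.5 ± 24.6 to 228.3 ± 6.70 CPM, by 1.00. Of 8 bridging proteins and opsonins other than the TAM ligands, 3 rose, 3 fell and 2 did not pass (median 0.15). All 3 chains of the complement opsonin C1q fell, with log2 fold changes of -1.93 for C1qa, -1.70 for C1qc and -1.51 for C1qb. Edil3, a close relative of Mfge8, rose by 1.79, from 14.9 ± 1.10 to 51.3 ± 3.14 CPM. Thbs1, thrombospondin, did not pass (1.07, SE 0.734, adjusted p = 0.222). It read 89.0 CPM in macrophage library 1 and 5.98 and 3.55 CPM in the other macrophage libraries, and without library 1 it was called higher at 3.80 (adjusted p = 3.21e-10). It was also called higher with limma, with the replicate block, on the deposited scale and with no filter (1.00 to 2.37).

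The lipid receptors Timd4 and Stab1 stood at opposite ends of the scale. Timd4 had 3, 1 and 1 counts in macrophages and 0 in osteoclasts, so its level was at or near the floor in both groups and it entered no test. Tim-4 marks resident macrophages of several tissues, and its transcript was not detectable above 3 counts in any of these 6 libraries. Stab1 encodes stabilin-1, a large scavenger receptor. It read 1757, 1702 and 1792 CPM in macrophages and 1011, 1053 and 959 CPM in osteoclasts. The groups did not overlap, and the fall was 1.74-fold, a log2 fold change of -0.80 (SE 0.049, adjusted p = 9.81e-09), and -0.79 without macrophage library 1. Stab1 spans chromosome 14 from 31139013 to 31168641 on the minus strand, with 58 exon blocks. It shares 112 exonic bases with Nt5dc2 on the other strand, which fell from 89.9 to 47.0 CPM on average, and reads over those bases may not have been told apart.

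Stab1 and Timd4 belong to a list of 18 phosphatidylserine receptors and their partners, of which 17 were in the table and 15 were tested. Of these, 4 rose, 9 fell and 2 did not pass (median -0.28). Adgrb1, a receptor that signals directly to ELMO and DOCK proteins, had 0 counts in macrophages and 21, 27 and 16 in osteoclasts, at least 24.3-fold higher against 3 counts over the macrophage group. Even so, its osteoclast level was only 1.19 ± 0.419 CPM. Cd36, a receptor of oxidised lipids, rose from 363.2 ± 5.27 to 834.1 ± 27.8 CPM. Lrp1, a large endocytic receptor, fell by 0.81, and Trem2, a lipid-binding receptor, by 1.00.

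Inside the cell, Elmo1 and Dock1 form an exchange factor that loads Rac1 with GTP. Elmo1 read 207.4, 197.7 and 202.0 CPM in macrophages and 86.7, 91.0 and 89.0 CPM in osteoclasts. The replicates lay close together and far from the other group. The fall was 2.28-fold, a log2 fold change of -1.19 (SE 0.036, adjusted p = 7.00e-12), and -1.17 without macrophage library 1. Elmo1 spans chromosome 13 from 20090596 to 20608353 on the plus strand. It shares 403 exonic bases with the antisense gene Gm32036, which had at most 3 counts in any library.

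Dock1 read 53.9, 53.7 and 49.9 CPM in macrophages and 31.7, 35.1 and 34.0 CPM in osteoclasts. The groups did not overlap, with a fall of 1.56-fold, a log2 fold change of -0.64 (SE 0.063, adjusted p = 1.01e-06), and -0.62 without macrophage library 1. Dock1 spans chromosome 7 from 134670654 to 135173639 on the plus strand and shares no exonic bases with another annotated gene.

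Elmo2, a relative of Elmo1, read 87.8 ± 3.28 CPM in macrophages and 84.0 ± 0.674 CPM in osteoclasts and did not pass (-0.06, SE 0.043, adjusted p = 0.204), but was called lower with equal totals (-0.28, adjusted p = 4.84e-05). Per length, Elmo1 made up 53.6 ± 1.39% of the summed signal of the 3 Elmo genes in macrophages and 34.1 ± 0.717% in osteoclasts, where Elmo2 held 61.0 ± 0.485%. The log2 ratio of Elmo2 to Elmo1 rose from -1.21 ± 0.087 to -0.08 ± 0.035. Dock5, the DOCK protein known for its part in osteoclast adhesion, rose from 68.0 ± 4.93 to 125.8 ± 15.0 CPM, by 0.89 (adjusted p = 2.78e-07). Dock2, the DOCK protein of blood cells, fell by 0.42 (the log2 fold change was -0.64 with equal totals), from 549.8 ± 6.34 to 410.0 ± 33.2 CPM. The log2 ratio of Dock5 to Dock1 rose by 1.53 and that of Dock2 to Dock1 by 0.22. For each of these 3 ratios the groups did not overlap (exact permutation test, two-sided, p = 0.1, the smallest possible; 0.1 adjusted over 5 ratios). Dock1 was a minor DOCK gene throughout, at 3.78 ± 0.131% of the summed per-length signal of 11 Dock genes in macrophages and 2.66 ± 0.159% in osteoclasts. Dock2 held 32.3 ± 0.224 and 26.4 ± 0.281%. Dock8 read higher per length than Dock2, at 50.0 against 48.1 CPM per kilobase in macrophages and 44.4 against 35.9 in osteoclasts. The sum takes in all 11 genes, whether or not they pair with ELMO proteins, so it gives no share among ELMO partners. Of 13 tested genes of the 2 families, 2 rose, 6 fell and 5 did not pass (median -0.17).

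Of 14 tested genes of engulfment signalling, Elmo1 and Dock1 included, 5 rose, 7 fell and 2 did not pass (median -0.11). Rac2, the Rac GTPase of blood cells, rose from 251.1 ± 9.27 to 734.4 ± 51.3 CPM, by 1.55, and Rac1 fell by 0.15, a value of -0.37 with equal totals and of -0.33 that did not pass on the deposited scale (adjusted p = 0.12). Bcar1, an adaptor that works with Crk upstream of Dock1, rose by 2.81 from a low level, 0.692 ± 0.582 to 4.69 ± 1.08 CPM, and by 3.61 without macrophage library 1 or 2.35 without macrophage library 3. Library 1 held 24 of the 41 macrophage counts of Bcar1. Crk, an adaptor, rose by 0.27, but did not pass with equal totals (0.05, adjusted p = 0.233) or on the deposited scale (0.08, adjusted p = 0.723). Its relative Crkl fell by 0.40, and by 0.62 with equal totals.

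**Figure D3:**
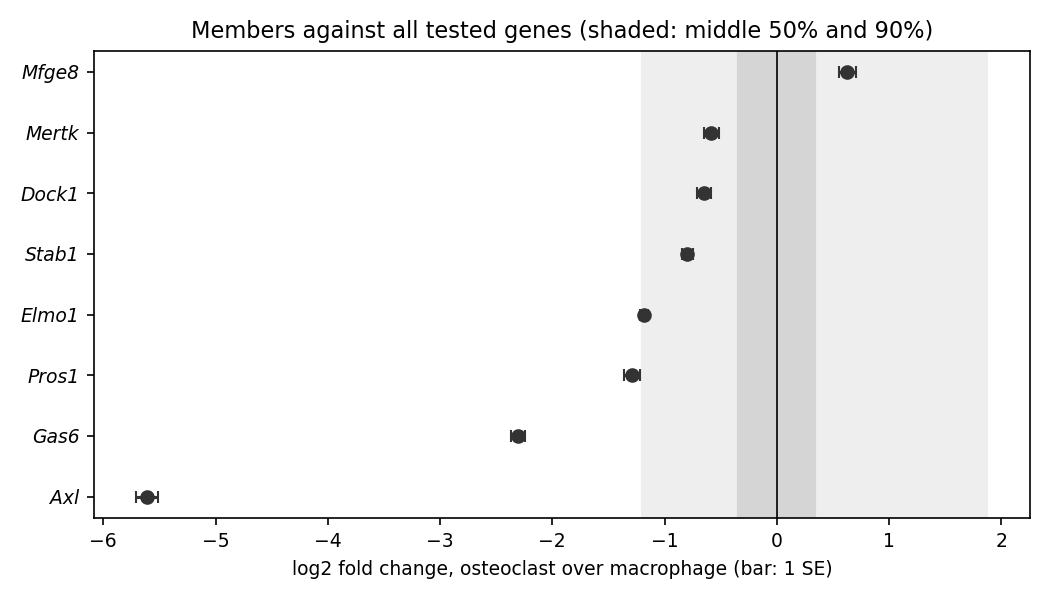
Log2 fold change (osteoclast over macrophage) of the 8 tested genes, with 1 SE, over bands that hold the middle 50% and 90% of all 13247 tested genes. Axl, Gas6 and Pros1 lie below the lower 90% limit of -1.20, and Mfge8 lies above the middle 50%.

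Genes of the steps after uptake went in both directions. Of 16 genes of corpse digestion, cholesterol efflux and their nuclear receptors, 6 rose, 4 fell and 6 did not pass (median 0.02). Among all tested genes 32.3% rose and 31.4% fell, so such a mix is common in this comparison. Pparg, a lipid-sensing nuclear receptor, fell by 4.10, from 36.2 ± 2.37 to 2.12 ± 0.260 CPM. Abca1, which exports cholesterol, rose by 1.24, from 153.9 ± 10.1 to 363.5 ± 29.1 CPM, while Abcg1, which also exports it, fell by 0.72. Nr1h3, the sterol sensor LXR alpha, rose by 0.90. Of 9 tested genes that attract or restrain phagocytes, 4 rose and 5 fell (median -0.20). Gpr132, a receptor of lipids from dying cells, rose by 2.02, and Cx3cr1, the fractalkine receptor, fell by 1.22. Cd24a, which encodes a don't-eat-me signal, fell from 18.4 ± 0.660 to 0.632 ± 0.105 CPM, by 4.85.

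**Figure D4:**
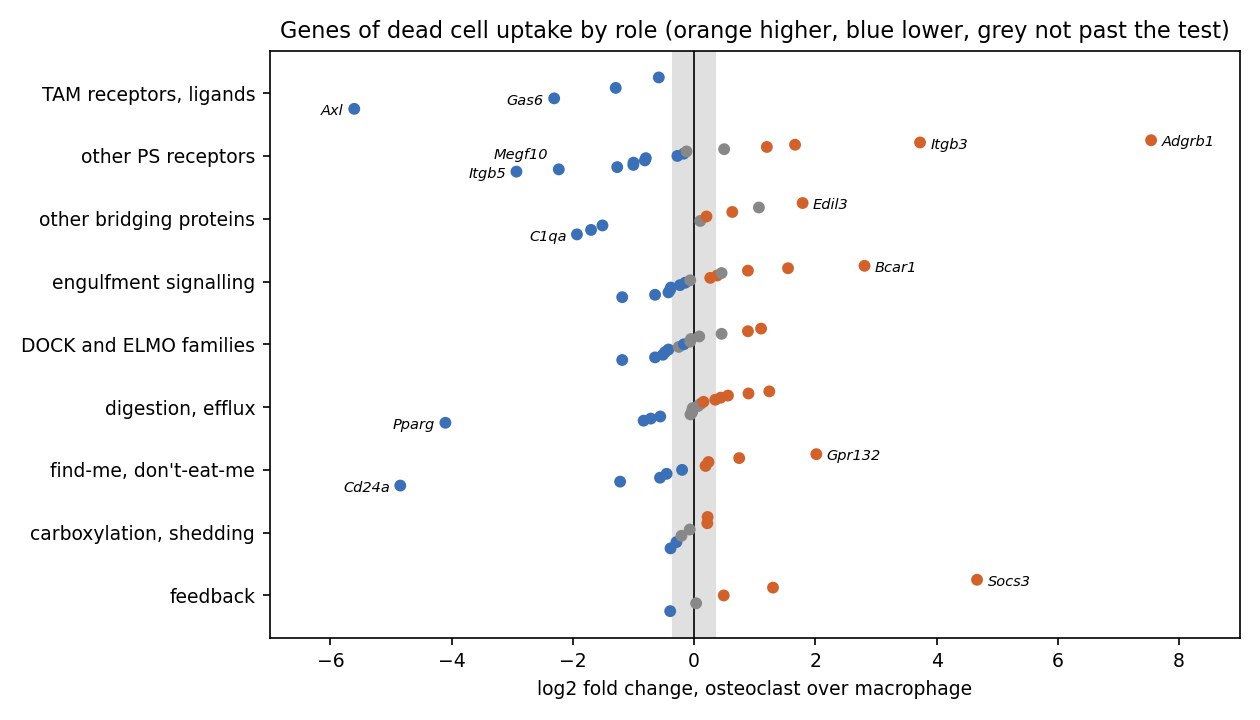
Log2 fold change (osteoclast over macrophage) of tested genes grouped by role, 1 point per gene, with the middle 50% of all tested genes shaded. All 4 tested TAM genes are lower, while every other group holds genes on both sides. Of all tested genes, 31.4% were called lower and 32.3% higher. The position of Adgrb1, at 0 counts in macrophages, depends on the fit and is no measured fold.

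Set side by side per length, the order of the 9 genes shifted. In macrophages it ran Gas6, Stab1, Axl, Elmo1, Mertk, Pros1, Mfge8, Dock1 and Timd4. Gas6 read 190.7 to 207.4 and Stab1 165.5 to 174.2 CPM per kilobase, without overlap, while Pros1 (13.6 to 15.9) overlapped both Elmo1 (15.7 to 16.5) and Mertk (14.1 to 15.3). In osteoclasts it ran Stab1, Gas6, Mfge8, Mertk, Elmo1, Pros1, Dock1, Axl and Timd4, and no neighbours overlapped. Axl went from the third place to the eighth, and Mfge8 from the seventh to the third. Lengths are those of all annotated exons of a gene merged, and which exons these cells use was not measured, a limit on every level and share per length given here, those of Elmo1 with 12580 bases included.

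The genes with the profile most like that of each strongly lowered member were found by the distance between centred log2 CPM values over the 6 libraries, among 8728 genes of at least 10 CPM on average. Nearest to Axl were the laminin chain Lama3 (distance 0.357), the progenitor marker Cd34 (0.733) and Sncaip (0.796). Nearest to Gas6 were Syngr1, the zinc transporter Slc39a8 and the small GTPase Rap2a (0.194 to 0.222). Nearest to Pros1 were the clock repressor Nr1d2, Frmd6 and Noct (0.114 to 0.158), and nearest to Elmo1 were Tbc1d14, Pask and the protein kinase A subunit Prkacb (0.0668 to 0.0883). Lama3 read 34.7 CPM on average in macrophages, about as far above its osteoclast level as Axl, with a log2 fold change of -5.50. Lama3, Cd34 and Sncaip averaged 0.782, 0.557 and 1.08 CPM in osteoclasts, so they met the 10 CPM mean only through the macrophage libraries. With 2 groups that differ this widely, any gene of a like fold change lies near.

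The direction of the typical gene depends on scaling. With TMM 4281 genes were higher and 4162 lower, with equal totals 2625 and 6445, and on the deposited scale 1800 and 3790, which put the median gene at -0.22 and -0.19 on the log2 scale. All 8 tested members kept their direction and call on each of these scales.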

How the data were processed

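The deposited mouse values are counts per gene symbol. Their table is named as normalized, but the deposited counts are whole numbers that fill the low integers evenly (chi-square per degree of freedom 0.771 to 1.10, against 1.93 to 3.55 after scaling by 3%), so they were analysed as raw counts. Per the submitters' processing notes, which give no roles, the tools included STAR 2.6.0c and featureCounts 1.6.2, with builds hg19 and mm10. Whether counting used strand is not stated. The human table was not used.

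Genes were tested with edgeR 4.0.16 in R 4.3.3 (filterByExpr, TMM, two-sided quasi-likelihood test on group). P-values were adjusted over all tested genes by Benjamini-Hochberg, and calls were made at 0.05. The SE of a log2 fold change was worked back from the test, as its absolute value divided by the square root of the F statistic. "Rose" and "fell" mean that a gene passed. The test was checked on simulated counts. Levels are CPM on TMM-scaled library sizes, and per-length levels divide by merged GENCODE vM21 exons. Ratios had 0.5 added to each count. Promoters are from RefSeq, and all 9 genes matched. Alternatives were DESeq2 1.42.0, limma 3.58.1 with a prior count of 5, 3 other scalings, no filter, a replicate block and leaving out each library. Members and lists were chosen with earlier results of these data known. In each list the 3 called genes of largest change were named, except that some are not reported here, and further list genes were chosen after their values were seen. Floors and counts cover counting error only.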

Additional observations from a re-analysis of the deposited data

How the results depend on the processing

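All 8 tested members kept their direction and call in all 13 alternatives, and the counts of 1 higher and 7 lower stayed. Leaving out single libraries moved Axl between -5.75 and -5.39, Gas6 between -2.38 and -2.24 and Mfge8 between 0.59 and 0.71 on the log2 scale. The largest adjusted p was 0.0303, for Mfge8 on the deposited scale. The genes called in all were 2625 higher and 6445 lower with equal totals and 1800 higher on the deposited scale, against 4281 and 4162. With the replicate block 4237 were higher and 4114 lower, and no call of a member changed. Same-numbered libraries correlated by 0.035, 0.038 and 0.096 in their deviations from the group means, and the other pairs by -0.10 to 0.051. Deviations within groups of 3 are tied to each other, so these values cannot decide whether same-numbered libraries share an animal or culture. On the deposited scale 3 engulfment genes rose against 5, 2 digestion genes against 6 and 2 find-me and don't-eat-me genes against 4. With equal totals 9 digestion genes fell against 4, 2 find-me and don't-eat-me genes rose against 4, and 2 feedback genes fell against 1. On both scales 0 carboxylation and shedding genes rose against 2. With limma 5 bridging genes rose against 3, and Adgrb1 read 2.46 against 7.54, both past the threshold. The 5 ratios kept their direction throughout, in a design that cannot pass 0.05. Timd4 could be fitted only without the filter (-3.79, adjusted p = 0.159). Leaving out single libraries moved Col1a1 between -3.53 and 1.19 and Col1a2 between -3.69 and 1.13, the higher values without macrophage replicate 1, and their fall was not called with limma or without osteoclast replicate 1 or 3. Vkorc1, which passed in no alternative, read between -0.22 and 0.059 on leaving out single libraries, the latter without macrophage replicate 3. Low counts limit what can be said of Timd4, Tyro3 and Adgrb1.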
